A study of Arabidopsis thaliana with 17 samples.

Results

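The step from 12 h to 24 h after cutting was followed in hypocotyls of Arabidopsis thaliana, the thale cress, over the 18508 genes that reached at least 1 RPKM (reads per kilobase of gene, scaled to the mapped reads of the library) in at least 2 of the 5 libraries of these times, out of 28642 genes listed. The seedlings had been raised without light on MS-0 medium, and their etiolated hypocotyls were severed and kept in darkness on the same medium, so that all samples share the dark growth, the medium and the wound. The 24 h group has 2 libraries and the 12 h group has 3, and every other time of the series (0, 1, 3 and 6 h) has 3, which makes 17 libraries in all. No hypocotyl left uncut for the same number of hours is among the samples, so time after the cut and time on the plate cannot be told apart. The labels give whole hypocotyls as the tissue, with no ecotype, no cell sorting and no distance from the cut.

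A cut hypocotyl closes its wound with callus, a mass of dividing cells, and the cell cycle that feeds it runs through a phase of DNA synthesis into mitosis. Entry into mitosis is driven by B-type and A-type cyclins bound to cyclin-dependent kinases (CDKs), and in plants the genes of this phase are switched on together by MYB3R proteins that bind a short element in their promoters. Plant cells divide by building a new wall from the middle outwards, guided by a microtubule scaffold called the phragmoplast. Exposed tissue is also sealed with suberin, a polyester of long-chain fatty acids, glycerol and phenolic acids that is otherwise laid down in the endodermis, the layer around the vascular cylinder. Xylem vessels follow another course, in which a thick secondary wall of cellulose, xylan and lignin is deposited before the cell dies.

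The libraries held 11760741 and 11736568 mapped reads at 24 h, against 7872179, 7854974 and 7844414 at 12 h, and at the shallower depth 3 reads on a 1 kb gene correspond to about 0.381 RPKM. Pearson correlations of log2(RPKM + 1) were 0.991 between the 24 h pair, 0.983 to 0.989 among the 12 h libraries and 0.955 to 0.964 between the times. The labels do not say whether the libraries of 1 time came from separate batches of seedlings, and all p-values therefore rest on library-to-library spread alone, which may be technical. Some libraries stood apart in a part of their genes. The first 12 h library had more light-harvesting and greening transcripts than its partners, with a sum over 18 genes of 196.6 and 196.4 RPKM at 24 h, against 596.8, 229.1 and 258.5 RPKM at 12 h. The first 24 h library was above the second in most suberin genes, and the third 12 h library was the lowest of its group in most mitotic genes; the light-harvesting, suberin and mitotic counts are also given without the library concerned. Since whole hypocotyls were extracted, a lower level of a gene cannot be divided into fewer cells of a type and less RNA per cell.

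Between 12 h and 24 h, 2024 genes rose and 1587 fell (10.9% and 8.57% of the 18508) at a Benjamini-Hochberg adjusted p under 0.05 in limma's linear model, so that 19.5% were called in one direction or the other. Most changes were modest, since 2765 of the 3611 called genes differed by less than 2-fold on the log2(RPKM + 1) scale. At least 2-fold changes were called for 471 genes that rose (2.54%) and 375 that fell (2.03%). The preceding step, from 6 h to 12 h, shares the 12 h libraries with this one, and in it 6286 of the same genes were higher (34.0%) and 3049 lower (16.5%) at 12 h. The median log2 difference over all 18508 genes was 0.034. Both 24 h libraries lay above all 3 of the 12 h libraries for 31.4% of the genes and below all 3 for 22.4%. The counts lean on both 24 h libraries, as 1012 genes rose and 877 fell without 24 h replicate 1, and 944 rose and 787 fell without 24 h replicate 2.

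**Figure D1:**
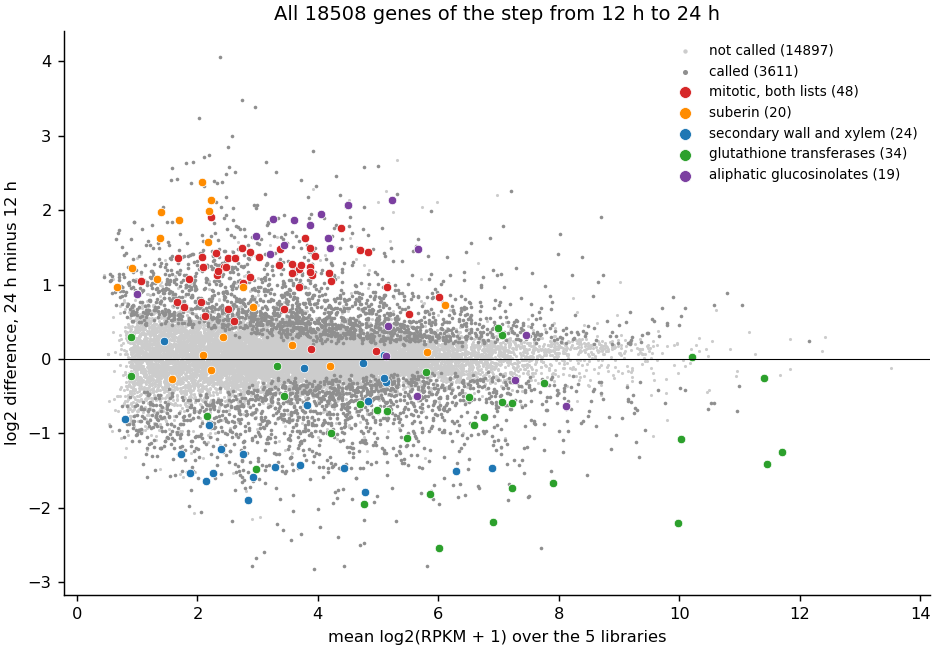
Each point is 1 of the 18508 genes, with its mean log2(RPKM + 1) over the 5 libraries on the horizontal axis and its log2 difference, 24 h minus 12 h, on the vertical axis. The 3611 called genes are dark grey, and coloured points mark 5 gene lists: the mitotic and suberin genes lie mostly above 0, the secondary wall genes and the glutathione transferases mostly below it, the transferases at higher expression.

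The mitotic genes rose almost as a whole at this step. Of 48 genes in 2 lists, one of mitotic cyclins, CDKs and their regulators (32) and one of spindle and cytokinesis genes (16), 45 were called higher at 24 h and none lower, against 10.9% and 8.57% of all genes, and 35 rose at least 2-fold. Their median log2 difference was 1.19, with 1.16 for the cyclin list and 1.24 for the spindle list, beside 0.034 for all genes. In 47 of the 48 both 24 h libraries lay above all 3 of the 12 h libraries, where 31.4% of all genes did. Summed over the 48 genes, expression was 881.5 and 945.9 RPKM at 24 h, against 432.4, 463.8 and 346.0 RPKM at 12 h. The rise was not confined to this step. From 6 h to 12 h, a step that shares the 12 h libraries, 45 of the 48 were higher and 2 lower at 12 h. Their median log2 difference in that step was 1.42, and 34.0% of all genes were higher and 16.5% lower. Leaving out 1 library at a time left between 40 and 46 of the 48 called, with 45 called without 12 h replicate 1 and 44 without 12 h replicate 3.

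Among the transcription factors of this phase, MYB3R4 (AT5G11510), an activator of mitotic genes, had 11.9 and 12.7 RPKM at 24 h, against 4.38, 4.46 and 3.07 RPKM at 12 h (log2 difference 1.43, SE 0.13, adjusted p = 4.56e-06). Its relative MYB3R1 (AT4G32730) had 14.4 and 14.9 RPKM at 24 h, against 11.98, 14.6 and 13.5 RPKM at 12 h and was not called (log2 difference 0.13, adjusted p = 0.44), and its groups overlapped. The largest rise on either list was that of AT1G63100, annotated by RefSeq as a GRAS family transcription factor, with 8.21 and 10.5 RPKM at 24 h, against 1.93, 2.38 and 1.096 RPKM at 12 h (log2 difference 1.91, SE 0.21, adjusted p = 1.68e-05). The difference between the changes of the 2 MYB3R genes was not tested.

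All 14 A- and B-type cyclins on the list, and all 4 B-type CDKs, plant-specific kinases of the G2 phase and mitosis, were called higher. CYCB1;2 (AT5G06150) had 25.8 and 26.7 RPKM at 24 h, against 8.54, 9.02 and 6.15 RPKM at 12 h (log2 difference 1.63, SE 0.20, adjusted p = 5.61e-05), the largest change among the cyclins. CYCB1;1 (AT4G37490), the cyclin widely used as a reporter of dividing cells, had 7.46 and 8.48 RPKM at 24 h, against 3.32, 2.297 and 1.59 RPKM at 12 h (log2 difference 1.43). CYCA1;1 (AT1G44110) had 15.8 and 16.96 RPKM at 24 h, against 7.77, 6.84 and 4.49 RPKM at 12 h (log2 difference 1.26). In both cyclins the libraries of the 2 times did not overlap. CYCA2;1 (AT5G25380), at 2.13 and 2.33 RPKM at 24 h, against 0.8701, 0.581 and 0.291 RPKM at 12 h, was the only one of the 48 to enter the analysis through its 24 h libraries alone. Among the kinases, CDKB2;2 (AT1G20930) had 23.1 and 23.7 RPKM at 24 h, against 8.37, 10.6 and 9.14 RPKM at 12 h (log2 difference 1.24), and CDKB1;2 (AT2G38620) had 7.71 and 8.86 RPKM at 24 h, against 2.96, 4.16 and 1.96 RPKM at 12 h (log2 difference 1.24). The third 12 h library was the lowest of its group for 13 of the 14 cyclins and for 40 of all 48 mitotic genes.

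The genes that end mitosis rose with those that start it. CDC20.1 (AT4G33270), an activator of the anaphase-promoting complex, which marks cyclins for destruction, had 41.5 and 42.7 RPKM at 24 h, against 11.6, 16.1 and 8.57 RPKM at 12 h (log2 difference 1.76, SE 0.22, adjusted p = 6.09e-05). Its tandem neighbour CDC20.2 (AT4G33260) had 23.8 and 28.9 RPKM at 24 h, against 9.099, 11.9 and 5.99 RPKM at 12 h (log2 difference 1.49); the 2 genes are close copies, and reads could have been divided between them in the counting. CCS52B (AT5G13840), a second activator of the complex with a peak in mitosis, had 25.6 and 27.7 RPKM at 24 h, against 9.95, 9.98 and 8.799 RPKM at 12 h (log2 difference 1.39). MAD2 (AT3G25980), of the checkpoint that holds the complex back until chromosomes are attached, had 48.7 and 53.3 RPKM at 24 h, against 20.6, 21.5 and 13.5 RPKM at 12 h (log2 difference 1.44). Inhibitors of the complex in plants, GIG1 (AT3G57860) and UVI4 (AT2G42260), rose as well, by log2 differences of 1.01 and 0.77. Aurora kinases, which act on centromeres and the spindle, were called higher in all 3 cases, with 8.39 and 9.56 at 24 h, against 3.11, 3.22 and 2.37 at 12 h for AUR2 (AT2G25880) (RPKM, log2 difference 1.36). Calls lost when 1 library was removed were those of CDKB1;1 without either 24 h library (adjusted p = 0.0596 to 0.0792) and UVI4 without either 24 h library (adjusted p = 0.0605 to 0.0725). A call was also lost for AUR3 without either 24 h library or 12 h replicate 3 (adjusted p = 0.0593 to 0.216) and CKS1 without 24 h replicate 2 (adjusted p = 0.0585).

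Spindle and cytokinesis genes followed the same course. The spindle assembly factor TPX2 (AT1G03780) had 13.2 and 13.6 RPKM at 24 h, against 5.46, 4.77 and 3.63 RPKM at 12 h (log2 difference 1.37, SE 0.16, adjusted p = 4.16e-05). The kinesin ATK5 (AT4G05190), which helps to gather spindle microtubules, had 21.5 and 20.9 RPKM at 24 h, against 9.37, 9.27 and 6.47 RPKM at 12 h (log2 difference 1.26). EDE1 (AT2G44190), a microtubule-associated protein of dividing cells, had 4.24 and 4.98 RPKM at 24 h, against 1.46, 1.39 and 0.804 RPKM at 12 h (log2 difference 1.35). In each of these genes both 24 h libraries exceeded every 12 h library. At the division plane, the kinesins POK1 (AT3G17360) and POK2 (AT3G19050), which hold the position of the future wall, rose by log2 differences of 1.38 and 1.35. PLE (AT5G51600), which bundles microtubules in the phragmoplast, had 10.3 and 12.8 RPKM at 24 h, against 3.84, 4.09 and 2.55 RPKM at 12 h (log2 difference 1.49, SE 0.16, adjusted p = 1.62e-05). HIK (AT1G18370), a kinesin that drives phragmoplast expansion, had 17.81 and 18.3 RPKM at 24 h, against 6.64, 6.78 and 4.38 RPKM at 12 h (log2 difference 1.48). The syntaxin KNOLLE, or KN (AT1G08560), which fuses vesicles into the new wall, had 46.4 and 47 RPKM at 24 h, against 18.9, 20.9 and 10.8 RPKM at 12 h (log2 difference 1.47). Its binding partner KEU (AT1G12360) had 31.2 and 31.96 RPKM at 24 h, against 28.3, 30.5 and 28.8 RPKM at 12 h and was not called (log2 difference 0.11, adjusted p = 0.419). CENH3 (AT1G01370), the centromeric histone, had 5.49 and 7.64 RPKM at 24 h, against 3.33, 5.005 and 2.96 RPKM at 12 h and missed the threshold (log2 difference 0.68, adjusted p = 0.0533). Among the spindle and cytokinesis genes 2 calls were lost with 1 library removed, those of TES without 24 h replicate 2 (adjusted p = 0.0839) and PAKRP1 without 24 h replicate 1 (adjusted p = 0.131).

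**Figure D2:**
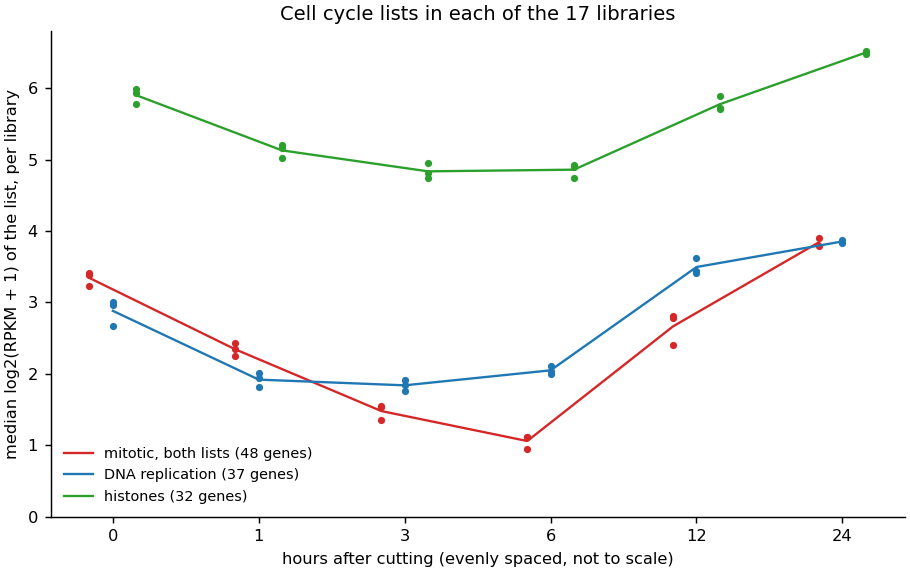
The median log2(RPKM + 1) over the 48 mitotic genes, the 37 DNA replication genes and the 32 histone genes is shown for each of the 17 libraries (points) with lines through the means of each time, in the order of hours after cutting; times are evenly spaced. The mitotic median was 0.95 to 1.12 in the 6 h libraries, 2.41 to 2.81 at 12 h and 3.79 to 3.90 at 24 h, while the replication median was 3.83 to 3.88 at 24 h, against 3.42 to 3.63 at 12 h.

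The 250 bases upstream of the annotated start of the 4 mitotic genes with the largest rises and of the replication gene with the largest rise are shown, because MYB3R elements lie near the starts of mitotic genes. They were read from RefSeq's TAIR10.1 assembly in the direction of the gene: AT1G63100 at chr1:23402177-23402426 (minus strand), CDC20.1 at chr4:16046938-16047133 (minus strand, 196 bases, as the neighbouring gene begins there), CYCB1;2 at chr5:1861704-1861953 (minus strand), PLE at chr5:20964538-20964787 (minus strand) and TOPII at chr3:8624386-8624635 (plus strand). Capitals mark the element's core AACGG, or CCGTT where it lies on the opposite strand.
AT1G63100: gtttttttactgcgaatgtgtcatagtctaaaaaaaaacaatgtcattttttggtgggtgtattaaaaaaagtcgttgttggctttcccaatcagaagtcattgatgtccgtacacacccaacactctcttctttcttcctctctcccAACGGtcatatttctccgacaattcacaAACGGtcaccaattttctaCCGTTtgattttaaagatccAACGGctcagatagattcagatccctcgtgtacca
CDC20.1: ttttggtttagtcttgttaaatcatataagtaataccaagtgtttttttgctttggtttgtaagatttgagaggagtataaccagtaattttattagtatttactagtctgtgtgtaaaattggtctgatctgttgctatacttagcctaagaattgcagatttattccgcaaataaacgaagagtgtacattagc
CYCB1;2: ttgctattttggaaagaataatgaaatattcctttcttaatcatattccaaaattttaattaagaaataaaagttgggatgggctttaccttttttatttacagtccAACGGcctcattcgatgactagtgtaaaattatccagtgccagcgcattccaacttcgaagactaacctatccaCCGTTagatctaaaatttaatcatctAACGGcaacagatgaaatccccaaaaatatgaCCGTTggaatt
PLE: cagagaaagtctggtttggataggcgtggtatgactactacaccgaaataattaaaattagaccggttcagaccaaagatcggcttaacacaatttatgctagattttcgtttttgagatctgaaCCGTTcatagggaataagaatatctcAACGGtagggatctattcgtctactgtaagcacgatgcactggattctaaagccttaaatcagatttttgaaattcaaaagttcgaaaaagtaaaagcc
TOPII: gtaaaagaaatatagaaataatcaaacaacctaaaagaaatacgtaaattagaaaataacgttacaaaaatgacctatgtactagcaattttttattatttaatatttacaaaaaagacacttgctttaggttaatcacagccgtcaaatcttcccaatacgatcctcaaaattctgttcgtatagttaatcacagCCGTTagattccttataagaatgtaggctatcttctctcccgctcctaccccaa
AT1G63100 and CYCB1;2 each hold 4 copies of the core, PLE holds 2, TOPII holds 1 and the shorter CDC20.1 stretch holds none. The first base of the copies lies 35 to 102 bases before the start in AT1G63100 and 11 to 143 bases before it in CYCB1;2.

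Over the 18390 genes whose full upstream 250 bases could be read, AACGG on either strand was present in 22.1% and occurred at least 2 times in 4.14%. For these shares and those below, the 250 bases were not cut at neighbouring genes, unlike the printed CDC20.1 stretch. It was present in 26 of the 48 mitotic promoters (54.2%), with at least 2 copies in 29.2%, and in 50.0% of the 32 histone promoters. It stood in 44.4% of the 18 ribosome biogenesis promoters, a list with none called higher at 24 h, and in 29.7% of the 37 DNA replication promoters. It was present in 4 of 20 suberin promoters and in 4.17% of the secondary wall promoters. Among all genes called higher at 24 h the core stood in 24.3% of promoters, and among those called lower in 319 of 1584. TTCCCGC, a form of the E2F element of S-phase genes, stood in 40.5% of the 37 DNA replication promoters, 4.17% of the mitotic promoters and 1.23% of all, and the other E2F form, TTGGCGC, in 13.5% and 0.761% of the replication and all promoters. A match describes these letters and not a bound factor.

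Genes of DNA synthesis mostly stood slightly higher at 24 h and were mostly not called. Of 37 DNA replication genes, 7 rose (18.9%, against 10.9% of all genes) and none fell, with a median log2 difference of 0.23. The difference was above 0 in 34 of the 37, and in 23 both 24 h libraries lay above all 3 of the 12 h libraries, where 31.4% of all genes did. In the preceding step, which shares the 12 h libraries, 31 of the 37 were higher and 1 lower at 12 h than at 6 h, with a median of 1.23. Of all genes, 34.0% were higher and 16.5% lower in that step. For the 48 mitotic genes, the corresponding medians were 1.19 from 12 h to 24 h and 1.42 from 6 h to 12 h. The 6 subunits of the MCM2 to MCM7 helicase, which opens the double strand at origins, were not called, with log2 differences of 0.11 to 0.30. PCNA1 (AT1G07370), the sliding clamp of the polymerases, had 27.6 and 27.8 RPKM at 24 h, against 23.4, 22.98 and 22.9 RPKM at 12 h (log2 difference 0.25, adjusted p = 0.319).

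The replication genes that did rise include some that also serve mitosis or chromatin. TOPII (AT3G23890), topoisomerase II, which untangles sister chromatids, had 18.21 and 20.21 RPKM at 24 h, against 9.29, 8.66 and 6.47 RPKM at 12 h (log2 difference 1.16, SE 0.16, adjusted p = 0.000115). CDT1B (AT3G54710), a licensing factor of origins, had 6.099 and 6.98 RPKM at 24 h, against 2.58, 3.04 and 2.59 RPKM at 12 h (log2 difference 1.01). TSO2 (AT3G27060), a small subunit of ribonucleotide reductase, had 98.8 and 99.7 RPKM at 24 h, against 57.4, 66.5 and 57.5 RPKM at 12 h (log2 difference 0.71). CMT3 (AT1G69770), which maintains DNA methylation, had 18.98 and 18.8 RPKM at 24 h, against 10.3, 12.2 and 8.99 RPKM at 12 h (log2 difference 0.80). All 4 were higher in both 24 h libraries than in any 12 h library. With 1 library left out, the number that rose was 4 without 24 h replicate 2. In fits with 1 library removed the calls lost were those of CDT1A without 24 h replicate 2 (adjusted p = 0.157) and MET1 without 24 h replicate 2 (adjusted p = 0.1). The same applied to CDC45 without either 24 h library (adjusted p = 0.0547 to 0.0767).

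Histone genes, many of them made in S phase, rose in 23 of 32 cases (71.9%, against 10.9% of all genes), and none fell (median log2 difference 0.61). The list also holds H2A.Z and H2A.X variants and 2 linker histone H1 genes, AT1G06760 and AT2G30620, neither of which was called. HTA6 (AT5G59870), an H2A gene, had 127 and 138 RPKM at 24 h, against 60.6, 71.8 and 57.7 RPKM at 12 h (log2 difference 1.06, SE 0.11, adjusted p = 1.19e-05). HIS4 (AT2G28740), an H4 gene, had 98.2 and 108 RPKM at 24 h, against 48.5, 54.6 and 45.4 RPKM at 12 h (log2 difference 1.05). AT1G09200, a histone H3.1 gene in RefSeq's synonyms, had 136 and 142 RPKM at 24 h, against 55.7, 70.5 and 58.8 RPKM at 12 h (log2 difference 1.17). The H2A.Z gene HTA11 (AT3G54560) had 42.8 and 47.4 RPKM at 24 h, against 16.6, 25.5 and 18.3 RPKM at 12 h (log2 difference 1.15), while the other H2A.Z genes HTA9 (AT1G52740) and HTA8 (AT2G38810) were not called (log2 differences 0.004 and 0.40). Histone genes of 1 class are near-identical, so the share of each copy in the counts is uncertain.

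D-type cyclins and CDK inhibitors set the entry into the cycle. Of 8 D-type cyclins 3 rose (37.5%, against 10.9% of all genes) and none fell. CYCD3;1 (AT4G34160) had 54.7 and 59.1 RPKM at 24 h, against 31.9, 40.5 and 34 RPKM at 12 h (log2 difference 0.67, SE 0.12, adjusted p = 0.00131), and its call held without any 1 library. CYCD6;1 (AT4G03270) and CYCD3;3 (AT3G50070) were also called higher (log2 differences 0.62 and 0.27), and the other 5 D cyclins analysed were not called. Of 16 inhibitor genes, of the KRP and SIAMESE families with the kinase gene WEE1, 2 fell and 0 rose. The share that fell, 12.5%, is near the 8.57% of all genes, and the median log2 difference of the list was 0.039. The genes that fell were KRP1 (AT2G23430) and SMR1 (AT3G10525), KRP1 with 9.76 and 9.69 RPKM at 24 h, against 17.38, 14.3 and 13.7 RPKM at 12 h (log2 difference -0.58). The calls that did not survive the removal of 1 library were those of CYCD6;1 without any 1 of the 5 libraries (adjusted p = 0.0552 to 0.209) and CYCD3;3 without any 1 library other than 12 h replicate 2 (adjusted p = 0.0615 to 0.162). The same was true of KRP1 without any 1 library other than 12 h replicate 3 (adjusted p = 0.0587 to 0.168) and SMR1 without any 1 of 24 h replicate 1, 12 h replicate 1 and 12 h replicate 3 (adjusted p = 0.0568 to 0.243).

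Suberin genes formed the second group that rose. Of 20 genes analysed, from transcription factors to transporters, 11 were called higher at 24 h and none lower (10.9% and 8.57% of all genes), with a median log2 difference of 0.97. The 4 genes MYB9, MYB107, MYB53 and GPAT7 passed the minimum of 1 RPKM through the 24 h libraries alone, and all 4 are among the 11. Without them 7 of 16 rose, with a median of 0.71, where 10.6% of the genes that passed at both times rose. In the preceding step, with the shared 12 h libraries, 5 of the 20 were higher at 12 h than at 6 h, where 34.0% of all genes were. The median was 0.29. Without 24 h replicate 1, which was the higher of its pair in 17 of the 20 genes, 7 were called.

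Among the regulators, MYB93 (AT1G34670), a MYB factor linked to suberin in roots, had 13.3 and 8.07 RPKM at 24 h, against 2.43, 1.62 and 0.929 RPKM at 12 h (log2 difference 2.14, SE 0.30, adjusted p = 0.00016). MYB9 (AT5G16770) had 4.64 and 3.66 RPKM at 24 h, against 0.991, 0.828 and 0.249 RPKM at 12 h (log2 difference 1.63, SE 0.24, adjusted p = 0.000209). MYB107 (AT3G02940) had 2.28 and 2.01 RPKM at 24 h, against 0.413, 0.724 and 0 RPKM at 12 h (log2 difference 1.22). MYB9 and MYB107 activate suberin genes in the seed coat. MYB53 (AT5G65230) had 1.59 and 1.16 RPKM at 24 h, against 0.324, 0.108 and 0.217 RPKM at 12 h (log2 difference 0.96). In all 4 the 24 h libraries were above every 12 h library, from low 12 h levels. The related MYB41 (AT4G28110) had 6.38 and 3.98 RPKM at 24 h, against 3.35, 5.04 and 3.62 RPKM at 12 h. MYB92 (AT5G10280) had 15.8 and 17.5 RPKM at 24 h, against 20.5, 15.8 and 17.39 RPKM at 12 h; neither was called (log2 difference 0.29, adjusted p = 0.602 for MYB41 and log2 difference -0.10, adjusted p = 0.658 for MYB92). One more factor, MYB39 (AT4G17785), did not reach the minimum, with 0.678 and 1.54 RPKM at 24 h, against 0.553, 0.462 and 0.462 RPKM at 12 h.

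The enzymes came next in the pathway. Acyl chains of suberin are oxidised at their far end by cytochrome P450 enzymes. CYP86B1 (AT5G23190), which acts on very long chains, had 12.2 and 7.25 RPKM at 24 h, against 2.05, 1.47 and 1.41 RPKM at 12 h (log2 difference 1.99, SE 0.28, adjusted p = 0.000173). GPAT5 (AT3G11430), which joins the chains to glycerol, had 8.02 and 4.46 RPKM at 24 h, against 1.05, 1.19 and 0.595 RPKM at 12 h (log2 difference 1.86, SE 0.38, adjusted p = 0.00311). Its relative GPAT7 (AT5G06090) had 6.79 and 3.63 RPKM at 24 h, against 0.845, 0.423 and 0.339 RPKM at 12 h (log2 difference 1.98). In each of the 3 genes the first 24 h library was the higher of the pair and both were above the 12 h libraries. The fatty acyl reductases FAR4 (AT3G44540) and FAR5 (AT3G44550), which make the primary alcohols of suberin, rose by log2 differences of 1.07 and 1.57, while FAR1 (AT5G22500) had 1.63 and 1.68 RPKM at 24 h, against 4.71, 2.005 and 0.932 RPKM at 12 h and was not called. Other enzymes were not called: CYP86A1 (AT5G58860), the main oxidase of shorter chains, had 13.4 and 6.13 RPKM at 24 h, against 4.36, 5.44 and 3.01 RPKM at 12 h (log2 difference 0.97, adjusted p = 0.166). ASFT (AT5G41040), the feruloyl transferase of the polymer, had 107 and 79.8 RPKM at 24 h, against 58.8, 57.5 and 50.5 RPKM at 12 h (log2 difference 0.73, adjusted p = 0.178). When only the 5 libraries of these times were fitted, so that the earlier times no longer entered the estimate of spread, ASFT was called (adjusted p = 0.00786).

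Export to the wall uses ABC transporters. ABCG6 (AT5G13580) had 13.3 and 7.91 RPKM at 24 h, against 1.32, 1.22 and 1.02 RPKM at 12 h (log2 difference 2.38, SE 0.34, adjusted p = 0.000205). This was the largest difference on the list. ABCG20 (AT3G53510) had 10.2 and 8.25 RPKM at 24 h, against 5.07, 6.09 and 4.75 RPKM at 12 h (log2 difference 0.70). ABCG2 (AT2G37360) had 4.22 and 2.65 RPKM at 24 h, against 2.87, 4.01 and 2.83 RPKM at 12 h and was not called (log2 difference 0.054, adjusted p = 0.92). The ABCG6 libraries of the 2 times were widely separated, and those of ABCG2 overlapped. Leaving out 1 library ended the call of GPAT5 without 24 h replicate 1 (adjusted p = 0.0649) and FAR5 without 24 h replicate 1 (adjusted p = 0.0969). A call was also lost for ABCG20 without 24 h replicate 1 (adjusted p = 0.0834) and FAR4 without any 1 library other than 12 h replicate 1 (adjusted p = 0.0755 to 0.277).

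Genes listed as markers of the endodermis, the layer that normally carries suberin, also stood higher at 24 h. All 7 genes analysed from the list (SCR, SHR, MYB36 and 4 CASP genes) were above every 12 h library in both 24 h libraries. Of all genes, 31.4% were. Their summed level was 282.0 and 306.5 RPKM at 24 h, against 117.8, 149.2 and 85.2 RPKM at 12 h. In the preceding step, which shares the 12 h libraries, 5 of the 7 were higher at 12 h, where 34.0% of all genes were. The median log2 difference was 2.48 in that step and 1.34 in this one, against 0.29 and 0.97 for the suberin genes. Over all 8 listed genes the sum at 0 h was 300.3, 258.9 and 70.8 RPKM. The Casparian strip proteins CASP1 (AT2G36100) and CASP4 (AT5G06200) had 116 and 132 at 24 h, against 31.4, 46.2 and 17.1 at 12 h for CASP1, and 46.8 and 45.5 at 24 h, against 14.4, 17.98 and 14.7 at 12 h for CASP4 (RPKM). MYB36 (AT5G57620), which controls the differentiation of this layer, had 26.8 and 29.4 RPKM at 24 h, against 17.45, 18.99 and 11.2 RPKM at 12 h and was the only marker called (log2 difference 0.82, SE 0.25, adjusted p = 0.0311). It lost its call without either 24 h library or 12 h replicate 3 (adjusted p = 0.11 to 0.187). The 4 CASP genes had standard errors near 1 in the fit over all times, and their levels varied within the 0 h and 1 h libraries (CASP1 at 65.8 ± 50.5 RPKM at 0 h and 31.8 ± 23.0 RPKM at 1 h, SD, n = 3 each). In a fit of the 5 libraries of 24 h and 12 h all 4 were called (adjusted p = 0.000294 for CASP4 to 0.0269 for CASP2). Over the 265 genes named or open to naming, that fit added 5 calls, ASFT and the CASP genes among them, and removed 9. CASP5 (AT5G15290) was at or near 0 in all 5 libraries, at most 0.457 RPKM. Of the epidermal markers, PDF2 (AT4G04890) rose (log2 difference 0.60). ATML1 (AT4G21750) had 1.22 and 1.08 RPKM at 24 h, against 1.23, 1.16 and 1.12 RPKM at 12 h. PDF1 (AT2G42840) had 1.92 and 0.0686 RPKM at 24 h, against 5.01, 1.95 and 1.23 RPKM at 12 h (log2 difference -0.95, not called). Further, 7 stomatal, 6 root hair and 9 seed storage markers stayed below the minimum. The part of the listed endodermal genes in the suberin result was not tested.

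**Figure D3:**
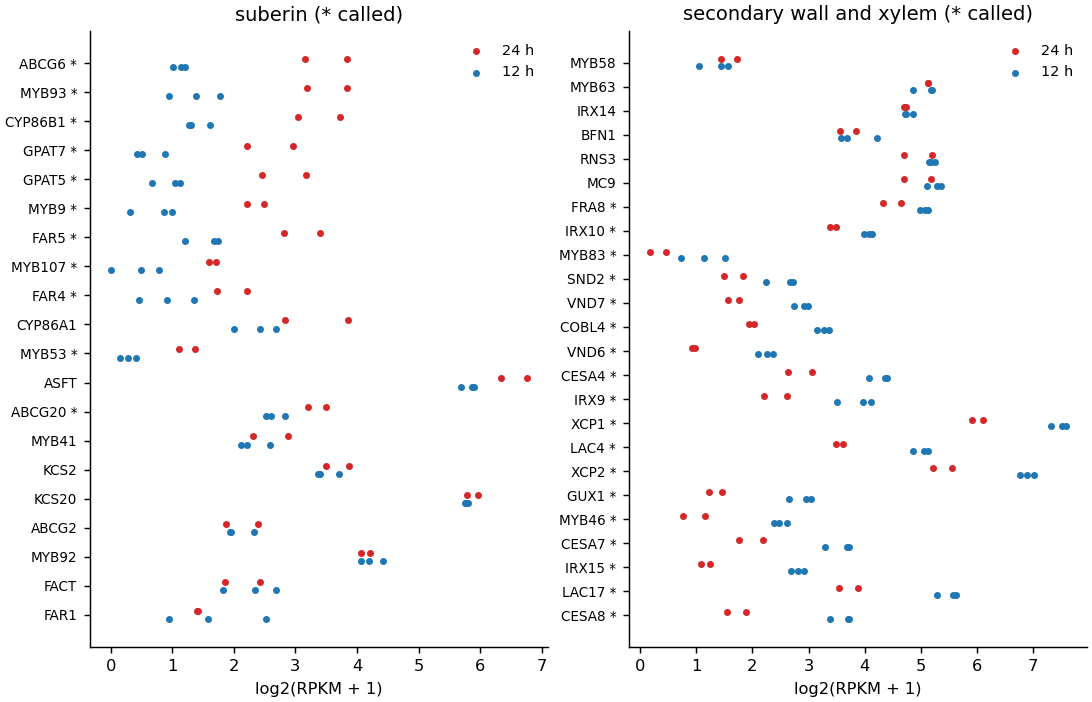
Every dot is log2(RPKM + 1) of 1 gene in 1 library, with 24 h libraries in red and 12 h libraries in blue, for the 20 suberin genes (left) and the 24 secondary wall and xylem genes (right), ordered by the difference between the times; an asterisk marks a called gene. The 11 called suberin genes have both red dots to the right of the blue ones and the 18 called secondary wall genes have them to the left.

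Genes of the outer surface lipids, cutin and wax, were called in both directions. Of 25 genes analysed 5 rose and 4 fell (beside 10.9% and 8.57% of all genes), with a median log2 difference of 0.17. The 4 that fell belong to alkane wax: CER1 (AT1G02205), needed to make very-long-chain alkanes, had 2.097 and 1.78 RPKM at 24 h, against 15.4, 16.1 and 18.97 RPKM at 12 h (log2 difference -2.598, SE 0.37, adjusted p = 0.000234). Its partner CER3 (AT5G57800) had 21.7 and 19.8 RPKM at 24 h, against 32.7, 32.6 and 40.5 RPKM at 12 h (log2 difference -0.73). The wax activators MYB96 (AT5G62470) and MYB94 (AT3G47600) had 7.001 and 7.11 at 24 h, against 13.1, 13.5 and 14.1 at 12 h for MYB96, and 11.1 and 10.9 at 24 h, against 16.1, 19.02 and 17.7 at 12 h for MYB94 (RPKM). Both CER genes and both MYB genes had their 24 h libraries below all 12 h libraries. Those that rose were cutin genes and 1 elongase: LACS2 (AT1G49430), an acyl-CoA synthetase, had 7.34 and 3.88 RPKM at 24 h, against 2.24, 1.37 and 0.931 RPKM at 12 h (log2 difference 1.38). CYP86A8 (AT2G45970) had 6.21 and 4.23 RPKM at 24 h, against 2.36, 1.49 and 0.925 RPKM at 12 h (log2 difference 1.28), and GPAT6 (AT2G38110), the transporter ABCG32 (AT2G26910) and the elongase KCS10 (AT2G26250) differed by 0.80, 0.51 and 0.37. The calls of the rising genes rest on single libraries, with 0 called without 24 h replicate 1, 3 without 24 h replicate 2, 3 without 12 h replicate 2 and 2 without 12 h replicate 3. Of the falling genes, CER3 and MYB94 lost their calls without 24 h replicate 2 (adjusted p = 0.0925 and 0.053).

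Lipid transfer proteins, small carriers that move lipids to the surface, fell in 6 of 15 cases (8.57% of all genes) and rose in none (median log2 difference -0.82). Without 2 members that passed the minimum through the 12 h libraries alone, 5 of 13 fell and the median was -0.59. In the preceding step, 8 of the 15 were higher at 12 h than at 6 h, where 34.0% of all genes were. LTP1 (AT2G38540) had 32.6 and 35.4 RPKM at 24 h, against 124, 91.1 and 104 RPKM at 12 h (log2 difference -1.61, SE 0.22, adjusted p = 0.000142). LTPG1 (AT1G27950), a membrane-anchored carrier of wax, had 103 and 104 RPKM at 24 h, against 253, 216 and 250.1 RPKM at 12 h (log2 difference -1.203, SE 0.32, adjusted p = 0.0168). The 2 most abundant, AZI1 (AT4G12470) and EARLI1 (AT4G12480), neighbours of close sequence, were not called, at 5707 and 5335 at 24 h, against 5536, 4669 and 5181 at 12 h for AZI1 and 6642 and 5700 at 24 h, against 5553, 4785 and 4796 at 12 h for EARLI1 (RPKM). With 1 library left out, the number that fell was 3 without 12 h replicate 3, 2 without 24 h replicate 1 and 2 without 24 h replicate 2, and LTPG1 lost its call without either 24 h library (adjusted p = 0.0983).

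Fatty acid synthesis in the plastid, the source of the chains for all of these polymers, rose by smaller amounts, in 9 of 22 genes (40.9%, against 10.9% of all genes) with none lower (median log2 difference 0.30). FATA (AT3G25110), a thioesterase that releases finished chains, had 20.3 and 19.8 RPKM at 24 h, against 10.7, 12.8 and 9.52 RPKM at 12 h (log2 difference 0.82, SE 0.14, adjusted p = 0.000715). The condensing enzyme KAS1 (AT5G46290) had 63.5 and 61.1 RPKM at 24 h, against 45.5, 45.8 and 43.5 RPKM at 12 h (log2 difference 0.46). CAC2 (AT5G35360), a subunit of the carboxylase that starts the pathway, had 70.3 and 67.7 RPKM at 24 h, against 51.3, 48.2 and 47.5 RPKM at 12 h (log2 difference 0.49). These 3 genes kept their calls without any 1 library, and 5 of the 22 were called without either 24 h library.

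Primary wall genes rose in part. Of 17 genes of primary wall synthesis, 8 rose and 2 fell (47.1% and 11.8%, against 10.9% and 8.57% of all genes). The pectin methylesterases PME3 (AT3G14310) and PME5 (AT5G47500), enzymes that alter the stiffness of pectin, had the largest rises, with 168 and 149.8 RPKM at 24 h, against 65.5, 67.3 and 43.6 RPKM at 12 h for PME3 (log2 difference 1.44, SE 0.20, adjusted p = 0.000146). PME5 had 3.92 and 3.69 RPKM at 24 h, against 1.24, 0.623 and 0.357 RPKM at 12 h (log2 difference 1.497). Of the primary wall cellulose synthases, CESA3 (AT5G05170) had 119 and 111 RPKM at 24 h, against 81.8, 77.1 and 74.8 RPKM at 12 h (log2 difference 0.56), and CESA6 (AT5G64740) and CESA2 (AT4G39350) rose by 0.53 and 0.71. AT1G48100, a pectin lyase-like protein in RefSeq, fell to 2.597 and 3.08 RPKM at 24 h, against 10.5, 9.97 and 12.6 RPKM at 12 h (log2 difference -1.65). That fall was the largest change on the list. The other gene called lower, PME1 (AT1G53840), is also a pectin methylesterase, and its call held without any 1 library. With 1 library left out, the number that rose was 5 without 12 h replicate 2, 5 without 12 h replicate 3, 2 without 24 h replicate 1 and 4 without 24 h replicate 2; PME3 and PME5 were called in each case. Calls lost when 1 library was removed were those of CESA3 without 24 h replicate 1 (adjusted p = 0.0932) and CESA6 without 24 h replicate 1 (adjusted p = 0.0975). The same applied to CESA2 without any 1 library other than 12 h replicate 1 (adjusted p = 0.0557 to 0.188).

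Of 27 xyloglucan endotransglucosylases (XTH) and expansins, families that loosen the wall, 5 rose and 2 fell. These shares, 18.5% and 7.41%, are near the 10.9% and 8.57% of all genes, so the genes below are described singly. XTH9 (AT4G03210) had 34.6 and 38.5 RPKM at 24 h, against 13.03, 11.2 and 9.02 RPKM at 12 h (log2 difference 1.65, SE 0.30, adjusted p = 0.00146). The expansin EXPA6 (AT2G28950) had 29.1 and 32.8 RPKM at 24 h, against 12.2, 12.4 and 11.4 RPKM at 12 h (log2 difference 1.296, SE 0.18, adjusted p = 0.000165). In contrast, EXPA1 (AT1G69530) had 135 and 122 RPKM at 24 h, against 264, 324 and 322 RPKM at 12 h (log2 difference -1.23, SE 0.18, adjusted p = 0.000288). EXPA10 (AT1G26770) had 32.5 and 21.3 RPKM at 24 h, against 59.2, 58.9 and 62.97 RPKM at 12 h (log2 difference -1.17). Members of 1 family thus stood above and below their 12 h range at the same time. When 1 library was left out, the number that rose was 2 without 24 h replicate 1 and 3 without 24 h replicate 2, and the number that fell was 4 without 12 h replicate 1 and 1 without 24 h replicate 2.

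Structural proteins of the wall rose in 7 of 24 cases and fell in 3 (29.2% and 12.5%, against 10.9% and 8.57% of all genes). FLA13 (AT5G44130), a fasciclin-like arabinogalactan protein, had 77.96 and 60.6 RPKM at 24 h, against 29.6, 22.1 and 11.2 RPKM at 12 h (log2 difference 1.77, SE 0.33, adjusted p = 0.00172). AGP31 (AT1G28290) had 24.4 and 24.4 RPKM at 24 h, against 9.91, 11.3 and 7.55 RPKM at 12 h (log2 difference 1.28). By contrast, FLA11 (AT5G03170) and FLA12 (AT5G60490), the 2 members known from secondary walls, fell, with 2.44 and 5.44 RPKM at 24 h, against 16.5, 15.3 and 17.55 RPKM at 12 h for FLA11 (log2 difference -1.89, SE 0.25, adjusted p = 0.000107). FLA12 had 1.22 and 1.57 RPKM at 24 h, against 3.25, 4.17 and 3.66 RPKM at 12 h (log2 difference -0.97). AGP15 (AT5G11740), one of the most abundant, also fell, at 1149 and 1007 at 24 h, against 1574, 1739 and 1872 at 12 h (RPKM, log2 difference -0.68). With 1 library left out, the number that rose was 3 without 12 h replicate 3, 3 without 24 h replicate 1 and 3 without 24 h replicate 2. In fits with 1 library removed the calls lost were those of FLA12 without 24 h replicate 1 (adjusted p = 0.0862) and AGP15 without either 24 h library or 12 h replicate 3 (adjusted p = 0.0593 to 0.166).

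Secondary wall and xylem genes fell. Of 24 genes analysed 18 were called lower at 24 h and none higher (8.57% and 10.9% of all genes), 14 of them at least 2-fold, with a median log2 difference of -1.28. Without VND6 and MYB83, which passed the minimum through the 12 h libraries alone, 16 of 22 were lower (72.7%), where 8.3% of the genes that passed at both times were. In the preceding step the median of the list was 0.078, with 5 genes higher and 1 lower at 12 h than at 6 h (34.0% and 16.5% of all genes). Leaving out 1 library at a time left 15 to 17 of the 24 called.

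The fall ran from the switch genes to the enzymes. VND7 (AT1G71930) and VND6 (AT5G62380), NAC factors that set vessel fate, had 1.97 and 2.41 at 24 h, against 6.53, 5.67 and 6.99 at 12 h for VND7, and 0.893 and 0.977 at 24 h, against 3.28, 3.77 and 4.14 at 12 h for VND6 (RPKM, log2 differences -1.21 and -1.28). Their target MYB46 (AT5G12870) had 0.689 and 1.23 RPKM at 24 h, against 5.14, 4.24 and 4.59 RPKM at 12 h (log2 difference -1.54, SE 0.31, adjusted p = 0.0027). MYB83 (AT3G08500) had 0.124 and 0.373 RPKM at 24 h, against 1.85, 1.21 and 0.651 RPKM at 12 h (log2 difference -0.81). All 3 cellulose synthases of the secondary wall fell: CESA8 (AT4G18780) had 1.91 and 2.67 RPKM at 24 h, against 12, 9.48 and 12.2 RPKM at 12 h (log2 difference -1.896, SE 0.19, adjusted p = 1e-05). CESA7 (AT5G17420) had 2.37 and 3.54 RPKM at 24 h, against 11.9, 8.77 and 12.2 RPKM at 12 h (log2 difference -1.59). CESA4 (AT5G44030) had 5.19 and 7.37 RPKM at 24 h, against 19.97, 15.9 and 19.5 RPKM at 12 h (log2 difference -1.43). In all 18 called genes of the list the second 24 h library was the higher of its pair, whereas in the 11 called suberin genes the first was.

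Enzymes of xylan and lignin and the proteases of dying vessels fell as well. IRX15 (AT3G50220) and IRX9 (AT2G37090), of xylan synthesis, had 1.11 and 1.37 at 24 h, against 6.03, 6.53 and 5.47 at 12 h for IRX15, and 3.61 and 5.11 at 24 h, against 14.7, 10.3 and 16.3 at 12 h for IRX9 (RPKM, log2 differences -1.65 and -1.46). The lignin laccases LAC17 (AT5G60020) and LAC4 (AT2G38080) had 10.6 and 13.7 at 24 h, against 46.6, 37.9 and 48.7 at 12 h for LAC17, and 10.2 and 11.2 at 24 h, against 34.1, 28.03 and 32.2 at 12 h for LAC4 (RPKM, log2 differences -1.79 and -1.47). XCP1 (AT4G35350) and XCP2 (AT1G20850), cysteine proteases that digest the vessel's contents, had 59.5 and 68.2 at 24 h, against 183, 159.6 and 191 at 12 h for XCP1, and 36.1 and 45.9 at 24 h, against 118, 108 and 128 at 12 h for XCP2 (RPKM, log2 differences -1.46 and -1.51). In these 6 genes no 24 h library reached the lowest 12 h library. Not called were the nucleases BFN1 (AT1G11190) and RNS3 (AT1G26820), the metacaspase MC9 (AT5G04200), IRX14 (AT4G36890) and the lignin regulators MYB58 (AT1G16490) and MYB63 (AT1G79180), with log2 differences of -0.31 to 0.23. The calls that did not survive the removal of 1 library were those of MYB83 without any 1 library other than 12 h replicate 3 (adjusted p = 0.0676 to 0.224) and SND2 without 24 h replicate 1 (adjusted p = 0.128). The same was true of FRA8 without any 1 of the 5 libraries (adjusted p = 0.0726 to 0.344).

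General phenylpropanoid and lignin genes did not share the fall, with 2 of 27 higher and 2 lower (7.41% each, near the shares of all genes) and a median log2 difference of 0.19. CAD5 (AT4G34230), an alcohol dehydrogenase of lignin monomers, had 394 and 388 RPKM at 24 h, against 779, 854 and 910.4 RPKM at 12 h (log2 difference -1.11, SE 0.10, adjusted p = 2.06e-06). PAL3 (AT5G04230), of the pathway's first step, had 18.1 and 16.2 RPKM at 24 h, against 6.49, 6.35 and 5.69 RPKM at 12 h (log2 difference 1.34, SE 0.15, adjusted p = 2.66e-05). Cambium genes, which mark the vascular stem cells, stood higher in 4 of 15 cases (26.7%, against 10.9% of all genes) and lower in none. PXY (AT5G61480), the receptor of the cambium, had 43.3 and 49.7 RPKM at 24 h, against 23.61, 29.8 and 29.8 RPKM at 12 h (log2 difference 0.73, SE 0.11, adjusted p = 0.000294). WOX4 (AT1G46480), its target, had 22.6 and 23.2 RPKM at 24 h, against 11.2, 15.66 and 11.8 RPKM at 12 h (log2 difference 0.80). PXY kept its call without any 1 library. Leaving out 1 library ended the call of WOX4 without any 1 library other than 12 h replicate 2 (adjusted p = 0.0628 to 0.124) and REV without 24 h replicate 2 (adjusted p = 0.131). A call was also lost for SMXL4 without either 24 h replicate 2 or 12 h replicate 1 (adjusted p = 0.0755 to 0.274). None of 7 phloem markers was called (median log2 difference -0.019), and their summed level was 226.7 and 282.2 RPKM at 24 h, against 223.6, 305.7 and 301.9 RPKM at 12 h.

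**Figure D4:**
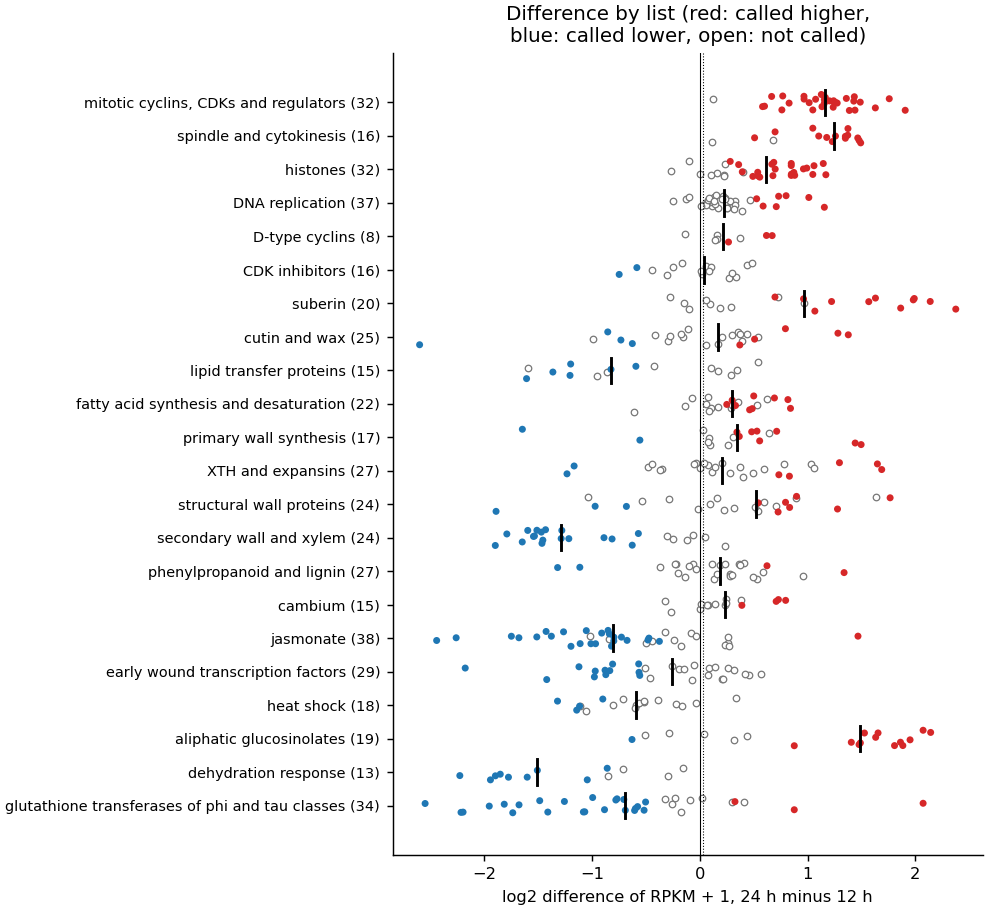
Each dot is the log2 difference of 1 gene, 24 h minus 12 h, in 22 of the gene lists (number of genes in brackets), red where called higher at 24 h, blue where called lower and open where not called; vertical bars are list medians and the dotted line is the median of all 18508 genes, 0.034. The last 3 lists were chosen after the values had been seen.

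Genes of the early wound response fell between 12 h and 24 h. Of 38 jasmonate genes, 24 were called lower at 24 h and 1 higher (8.57% and 10.9% of all genes), with a median log2 difference of -0.81. Without LOX3, ORA47 and TAT3, which passed the minimum through the 12 h libraries alone, 23 of 35 were lower, where 8.3% of the genes that passed at both times were. For synthesis of the hormone, AOS (AT5G42650) had 30.3 and 31.5 RPKM at 24 h, against 73.6, 58.6 and 53.4 RPKM at 12 h (log2 difference -0.97, SE 0.14, adjusted p = 0.000168). OPR3 (AT2G06050) had 23.7 and 22.8 RPKM at 24 h, against 42.5, 40.8 and 40.2 RPKM at 12 h (log2 difference -0.80). MYC2 (AT1G32640), the main transcription factor of the response, had 27.9 and 29.4 RPKM at 24 h, against 61.97, 62.98 and 51.6 RPKM at 12 h (log2 difference -1.01, SE 0.11, adjusted p = 1.6e-05). The repressors JAZ9 (AT1G70700) and JAZ10 (AT5G13220) had 4.23 and 5.74 at 24 h, against 21.9, 15.72 and 11.7 at 12 h for JAZ9, and 13.1 and 13.2 at 24 h, against 43.5, 34.97 and 23.4 at 12 h for JAZ10 (RPKM). Unlike them, JAZ4 (AT1G48500) rose and had 6.35 and 7.45 RPKM at 24 h, against 2.01, 1.94 and 1.61 RPKM at 12 h (log2 difference 1.47, SE 0.17, adjusted p = 3.02e-05). For breakdown, JRG21 (AT3G55970), which hydroxylates jasmonic acid, had 3.31 and 3.19 RPKM at 24 h, against 18.8, 24.3 and 23.5 RPKM at 12 h (log2 difference -2.44, SE 0.14, adjusted p = 7.59e-08). CYP94B1 (AT5G63450), which oxidises its active conjugate, had 6.28 and 4.67 RPKM at 24 h, against 31.9, 32 and 25.7 RPKM at 12 h (log2 difference -2.26). Each of the 8 genes had its 24 h libraries wholly outside the 12 h range.

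Of 29 early wound transcription factors 12 fell (41.4%, against 8.57% of all genes) and none rose; without 2 that passed the minimum through the 12 h libraries alone, 11 of 27 fell. RAP2.6 (AT1G43160), an ERF factor, had 15.98 and 13.9 RPKM at 24 h, against 65.2, 73.7 and 73.5 RPKM at 12 h (log2 difference -2.17, SE 0.20, adjusted p = 4.89e-06). WRKY40 (AT1G80840) had 6.76 and 4.63 RPKM at 24 h, against 17.01, 22.9 and 11.8 RPKM at 12 h (log2 difference -1.42). ERF115 (AT5G07310), known from the replacement of damaged stem cells, had 6.98 and 6.88 RPKM at 24 h, against 10.9, 16.6 and 16.9 RPKM at 12 h (log2 difference -0.97). The 24 h libraries of these 3 genes lay below all of the 12 h libraries. Without 24 h replicate 2, 6 of the 29 were called. Of 9 defence genes 5 fell and 2 rose (55.6% and 22.2%): PAD3 (AT3G26830), of camalexin synthesis, had 16.7 and 9.86 RPKM at 24 h, against 33.1, 35.1 and 32.9 RPKM at 12 h (log2 difference -1.32). PR4 (AT3G04720), a chitin-binding protein, had 718 and 639.6 RPKM at 24 h, against 347, 337 and 256 RPKM at 12 h (log2 difference 1.12). Calls lost when 1 library was removed were those of PAD3 without 24 h replicate 2 (adjusted p = 0.182) and PR4 without 24 h replicate 1 (adjusted p = 0.0623). The counts were 3 lower and 0 higher without 24 h replicate 1 and 2 lower without 24 h replicate 2.

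Of 12 regulators of callus and meristems 3 rose and 1 fell (beside 10.9% and 8.57% of all genes). WIND1 (AT1G78080), a wound-induced driver of callus, had 251 and 259 RPKM at 24 h, against 258, 292 and 289 RPKM at 12 h and was not called (log2 difference -0.13, adjusted p = 0.363). Not called either were WOX13 (AT4G35550) (log2 difference -0.054, adjusted p = 0.808), PLT3 (AT5G10510) (log2 difference 0.41, adjusted p = 0.117) and PLT5 (AT5G57390) (log2 difference 0.02, adjusted p = 0.94). LBD16 (AT2G42430), of auxin-driven callus, had 15.2 and 11.7 RPKM at 24 h, against 19.4, 22.6 and 20.6 RPKM at 12 h and was not called (log2 difference -0.61, adjusted p = 0.0985), with both 24 h libraries below the 12 h libraries. AT1G36060, annotated by RefSeq as an integrase-type DNA-binding protein, had 30.2 and 28.6 RPKM at 24 h, against 11.6, 15.1 and 13.96 RPKM at 12 h (log2 difference 1.07, SE 0.20, adjusted p = 0.00152). WOX5 (AT3G11260), of the root stem cell niche, had 1.59 and 1.14 RPKM at 24 h, against 3.22, 3.73 and 3.06 RPKM at 12 h (log2 difference -0.88). In fits with 1 library removed the calls lost were those of WOX5 without either 24 h library or 12 h replicate 2 (adjusted p = 0.0673 to 0.199) and PLT7 without any 1 library other than 12 h replicate 1 (adjusted p = 0.0577 to 0.166). The same applied to WOX14 without any 1 library other than 12 h replicate 2 (adjusted p = 0.0775 to 0.168).

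**Figure D5:**
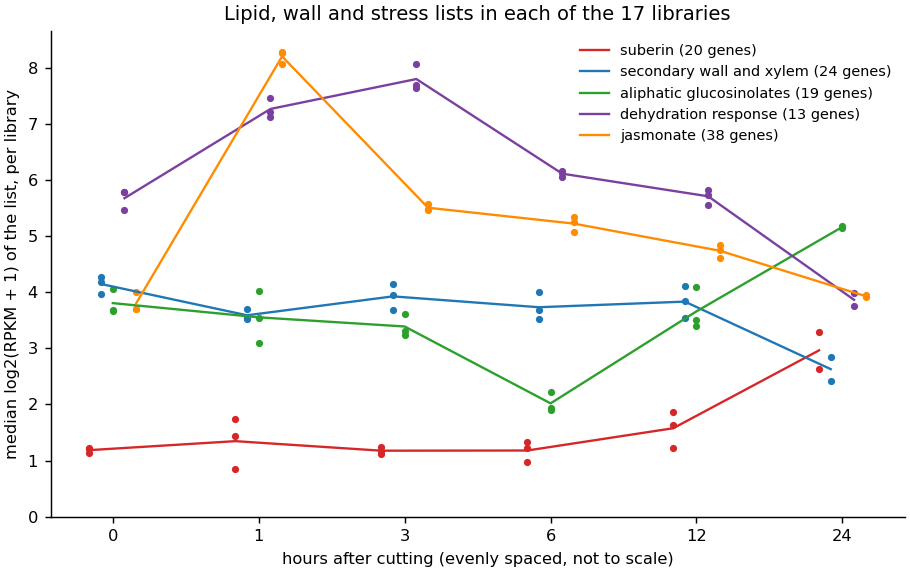
The median log2(RPKM + 1) of 5 gene lists is shown for each of the 17 libraries (points) with lines through the means of each time, in the order of hours after cutting; times are evenly spaced. The suberin median was 2.64 and 3.29 at 24 h, against 1.23 to 1.87 at 12 h; the secondary wall and jasmonate medians were lower at 24 h than in any 12 h library. The glucosinolate and dehydration lists were chosen after the values had been seen.

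Among all called genes with a symbol and a mean log2(RPKM + 1) of at least 3, the largest rise was that of ENODL15 (AT4G31840), an early nodulin-like protein, with 95.4 and 90.2 RPKM at 24 h, against 15.2, 19.5 and 10.4 RPKM at 12 h (log2 difference 2.59, SE 0.17, adjusted p = 3.95e-07). PYL6 (AT2G40330), of the family of abscisic acid receptors, had 26.2 and 28.2 RPKM at 24 h, against 4.27, 4.87 and 2.86 RPKM at 12 h (log2 difference 2.52). IMK2 (AT3G51740), a receptor-like kinase, had 32.97 and 37.1 RPKM at 24 h, against 6.702, 6.15 and 4.72 RPKM at 12 h (log2 difference 2.403). ATLP-1 (AT1G18250), a thaumatin-like protein, had 31.8 and 37.3 RPKM at 24 h, against 5.92, 8.44 and 6.28 RPKM at 12 h (log2 difference 2.18). Mean levels at 0 h were 66.85 RPKM for ENODL15, 21.24 for IMK2 and 34.56 for ATLP-1, but 0.4136 RPKM for PYL6. Only genes whose libraries of the 2 times did not overlap were ranked, so the separation of these genes was a condition of their choice. PELPK1 (AT5G09530), LAC8 (AT5G01040) and EDA4 (AT2G48140) rose by 2.58, 1.896 and 1.88, and the remaining 5 of the 12 largest rises (IMS2, GSTU20, MAM1, CYP83A1 and BCAT4) are genes of aliphatic glucosinolates. The calls that did not survive the removal of 1 library were those of PELPK1 without any 1 of the 5 libraries (adjusted p = 0.0552 to 0.241) and EDA4 without 24 h replicate 1 (adjusted p = 0.0908).

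Rises of a similar size were seen among genes without a symbol. AT4G33610, a glycine-rich protein in RefSeq, had 62.99 and 35.8 RPKM at 24 h, against 7.62, 5.73 and 4.87 RPKM at 12 h (log2 difference 2.796). AT4G21870, of the HSP20-like chaperones, had 26.2 and 24.5 RPKM at 24 h, against 6.36, 2.39 and 1.995 RPKM at 12 h (log2 difference 2.65). Chosen after their values were seen, 3 genes are annotated as hydroxyproline-rich glycoproteins, which belong to the wall. AT3G02120 had 53.8 and 54.1 RPKM at 24 h, against 11.2, 9.16 and 7.06 RPKM at 12 h (log2 difference 2.46, SE 0.24, adjusted p = 9.96e-06). AT4G38080 had 135 and 73.4 RPKM at 24 h, against 25.1, 26.3 and 12.96 RPKM at 12 h (log2 difference 2.22). AT2G22510 had 56.6 and 28.01 RPKM at 24 h, against 7.45, 8.86 and 5.57 RPKM at 12 h (log2 difference 2.32). Mean levels at 0 h were 44.71 RPKM for AT3G02120, 19.72 for AT4G38080 and 5.811 for AT2G22510. All 3 were taken from genes ranked under the condition that the libraries of the 2 times did not overlap. Leaving out 1 library ended the call of AT4G33610 without 24 h replicate 1 (adjusted p = 0.0809) and AT4G38080 without 24 h replicate 1 (adjusted p = 0.0549). The same was true of AT2G22510 without 24 h replicate 1 (adjusted p = 0.134).

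The largest fall among genes with a symbol was that of CML41 (AT3G50770), a calmodulin-like protein, with 4.96 and 6.63 RPKM at 24 h, against 35.2, 50.3 and 53.8 RPKM at 12 h (log2 difference -2.79, SE 0.27, adjusted p = 9.41e-06), followed by CER1 of wax synthesis. GSTU17 (AT1G10370), a glutathione transferase, had 21.1 and 21.4 RPKM at 24 h, against 124, 117 and 149 RPKM at 12 h (log2 difference -2.55). RNS1 (AT2G02990), a ribonuclease of wounded and starved tissue, had 71.5 and 72.2 RPKM at 24 h, against 413, 356 and 515 RPKM at 12 h (log2 difference -2.54). GCL1 (AT5G65280) had 8.33 and 9.06 RPKM at 24 h, against 57.4, 52.4 and 49.02 RPKM at 12 h (log2 difference -2.48). The falls, too, were ranked only among genes whose 24 h libraries all lay below the 12 h libraries. Without a symbol, 3 genes of the basic helix-loop-helix family stand among the 12 largest falls: AT4G20970 had 4.45 and 3.12 RPKM at 24 h, against 27.5, 31.99 and 39.6 RPKM at 12 h (log2 difference -2.83, SE 0.41, adjusted p = 0.000267). AT1G10585 had 16.5 and 16.7 RPKM at 24 h, against 110.3, 117 and 136 RPKM at 12 h (log2 difference -2.79). AT4G29930 had 4.31 and 3.62 RPKM at 24 h, against 22.02, 24.98 and 26.5 RPKM at 12 h (log2 difference -2.36). Of the 12 with a symbol, UGT74E2 (AT1G05680) and GSTU25 (AT1G17180) lost their calls without any 1 of the 5 libraries (adjusted p = 0.0619 to 0.338 for UGT74E2 and 0.0688 to 0.253 for GSTU25).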

How the data were processed

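The authors deposited 1 table of RPKM values per gene for 17 stranded mRNA libraries. Per the submitters' processing notes the genome build was TAIR10, and per the labels' protocols RNA was taken with a plant RNeasy kit and libraries were made with a Truseq stranded mRNA kit. The sources used here do not name an aligner or a counter. Mapped reads per library were inferred as the whole number that low RPKM values gave most often with annotated gene lengths. With these totals, a gene length giving whole reads, within 0.01 of an integer, was found for 24834 of the 24834 genes with any signal. Of these lengths, 4557 equalled a length in the reference annotation. No signal was present for 3808 genes. Of the mapped reads, 98.7% to 99.0% lay on genes.

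The main test was limma 3.58.1 (R 4.3.3) on log2(RPKM + 1), with intensity trend and robust moderation, over 19656 genes with at least 1 RPKM in at least 2 of the 17 libraries. Time was a factor of 6 levels, so the 2 libraries of 24 h share their estimate of spread with all times, and p-values of the contrast 24 h minus 12 h were Benjamini-Hochberg adjusted over these genes; a gene was called under 0.05. Of the 1148 genes tested that are not among the 18508 described, 16 were called. A difference on the log2(RPKM + 1) scale understates the change of low genes. The script was tested on simulated data. Since the values are RPKM, a count model was not the main test; limma's voom on the recovered reads was an alternative and called 4257 genes. Tables and figures used pandas 2.3.3 and numpy 2.4.6.

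The members and lists were chosen with earlier results of these data known. Genes named are the 12 largest rises and the 12 largest falls (called, with a symbol, mean log2(RPKM + 1) of at least 3, groups not overlapping), the called list members with the largest differences, and list members not called; further names were chosen after their values were seen. Symbols and products come from RefSeq's annotation of TAIR10.1, which gave 8024 of the 18508 genes a symbol. Promoters are the 250 bases before the annotated gene start, searched on both strands for 5 motifs, namely AACGG of MYB3R proteins, TTCCCGC with TTGGCGC of E2F proteins, the telo box AACCCTA, and TGGGCC of TCP proteins; the last of these stood in 17.3% of all promoters and 48.6% of replication promoters, and the telo box in 5.48% and 10.8%. Alternatives changed the pseudocount, the filter, the scaling, the libraries, the moderation and the depth.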

Additional observations from a re-analysis of the deposited data

How the results depend on the processing

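No gene named as called changed direction under any alternative run. The counts of genes that rose and fell were 944 to 1743 and 787 to 1396 with 1 of the 5 libraries left out, against 2024 and 1587; those of at least 2-fold rises and falls were 397 to 508 and 329 to 376, against 471 and 375; 40 to 46 of the 48 mitotic genes and 7 to 15 of the 45 suberin, cutin and wax genes rose, against 45 and 16. With a pseudocount of 5 the 2-fold counts were 183 higher and 176 lower. With only genes of mean RPKM of at least 5 fitted, 290 genes rose at least 2-fold and 5 suberin, cutin and wax genes rose, where fewer genes were tested. Median centring turned the balance of calls, to 1655 higher and 1864 lower genes and a median over all genes of -0.009 against 0.034; cutin and wax then had 3 higher and 4 lower genes. Medians near 0 also changed sign in some alternatives, among them those of the phloem markers (-0.24 to 0.15), the CDK inhibitors (-0.02 to 0.11), the cytokinin genes (-0.08 to 0.05) and the epidermal markers (-0.06 to 0.60). Reads thinned to the lowest total gave 1966 and 1578. With the replicate block the counts were 2019 higher, 1634 lower, 452 and 407 by at least 2-fold, 45 mitotic and 15 suberin, cutin and wax genes. Deviations of same-numbered libraries correlated at 0.129 and -0.008 and those of crossed ones at -0.149 to 0.149. With 2 libraries at 24 h, their deviations from the mean mirror each other. These values therefore cannot show whether the replicate numbers pair the samples. Of 265 genes named or open to naming, 76 lost their call without 24 h replicate 2 and 75 without 24 h replicate 1, where 1 library of 24 h remained and was assumed to vary like the other times. The cause of the other changes was not tested. With 3 reads on a 1 kb gene worth 0.255 RPKM at 24 h and 0.381 to 0.382 at 12 h, changes of genes near 1 RPKM rest on few reads.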

Other observations

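The 3 gene groups described first here were listed after their values had been seen, so their counts describe the data and test nothing. Genes of aliphatic glucosinolates, sulphur compounds made from methionine that deter herbivores, stood higher at 24 h in 13 of 19 cases and lower in 1, with a median log2 difference of 1.49 (10.9% and 8.57% of all genes were called in these directions). Without 1 member that passed the minimum through the 24 h libraries alone, 12 of 18 genes were higher and 1 lower. MYB28 (AT5G61420), their main activator, had 13.8 and 15.4 RPKM at 24 h, against 3.66, 5.64 and 2.896 RPKM at 12 h (log2 difference 1.65, SE 0.21, adjusted p = 8.19e-05). Of the enzymes that lengthen methionine's chain, BCAT4 (AT3G19710) had 26.7 and 24.2 RPKM at 24 h, against 5.49, 10.8 and 4.01 RPKM at 12 h (log2 difference 1.86). MAM1 (AT5G23010) had 35.95 and 37.01 RPKM at 24 h, against 7.79, 13.4 and 6.19 RPKM at 12 h (log2 difference 1.95). IMS2 (AT5G23020) had 90.98 and 90.8 RPKM at 24 h, against 17.2, 30.4 and 14.8 RPKM at 12 h (log2 difference 2.14). Of the core pathway, CYP83A1 (AT4G13770) had 20.6 and 19.1 RPKM at 24 h, against 3.51, 9.099 and 2.94 RPKM at 12 h (log2 difference 1.88, SE 0.41, adjusted p = 0.00521). GSTU20 (AT1G78370) had 53.7 and 51.8 RPKM at 24 h, against 8.902, 18.3 and 9.93 RPKM at 12 h (log2 difference 2.07). In these 6 genes the second 12 h library was the highest of its group. CYP79B2 (AT4G39950), an enzyme of the related indole compounds, had 163 and 177 RPKM at 24 h, against 427, 312 and 279.5 RPKM at 12 h (log2 difference -0.97). It lost its call without any 1 library other than 12 h replicate 3 (adjusted p = 0.0627 to 0.188).

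Glutathione transferases, which couple glutathione to reactive compounds, fell in 23 of 34 cases (67.6%, against 8.57% of all genes). They rose in 3 (8.82%, near the 10.9% of all genes). Their summed level was 10130 and 9343 RPKM at 24 h, against 19340, 19310 and 18010 RPKM at 12 h. Of the 32 that passed the minimum at both times, 23 fell and 2 rose. GSTF2 (AT4G02520) had 2042 and 1918 RPKM at 24 h, against 4724, 4941 and 4516 RPKM at 12 h (log2 difference -1.25, SE 0.11, adjusted p = 3.2e-06). GSTF7 (AT1G02920) had 1836 and 1345 RPKM at 24 h, against 4375, 4277 and 3889 RPKM at 12 h. GSTU19 (AT1G78380) had 678 and 648 RPKM at 24 h, against 1316, 1354 and 1544 RPKM at 12 h (log2 differences -1.41 for GSTF7 and -1.08 for GSTU19). Several members lie in tandem arrays of close copies, so the division of reads among them is uncertain. The 3 that rose were GSTU20, GSTF11 (AT3G03190) and GSTU13 (AT1G27130), of which GSTU20 and GSTF11 also belong to the glucosinolate list (log2 differences 2.07, 0.88 and 0.33); without 24 h replicate 1, and likewise without 12 h replicate 3, 1 member was called higher. Genes known from drought, cold and abscisic acid fell in 9 of 13 cases (69.2%, against 8.57% of all genes) and rose in none (median log2 difference -1.51). Of the 12 that passed the minimum at both times, 9 fell. RD22 (AT5G25610) had 62.7 and 64.7 RPKM at 24 h, against 249, 206 and 268 RPKM at 12 h (log2 difference -1.895, SE 0.20, adjusted p = 1.63e-05). The homeobox gene HB-12 (AT3G61890) had 12.4 and 14.8 RPKM at 24 h, against 46.2, 52.5 and 55.98 RPKM at 12 h (log2 difference -1.85). P5CS1 (AT2G39800), of proline synthesis, had 25.8 and 28.5 RPKM at 24 h, against 90.5, 90.7 and 105 RPKM at 12 h (log2 difference -1.77). No 24 h library of these genes reached the 12 h range.

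Other lists gave smaller or mixed counts, to be read against the 10.9% of all genes called higher and the 8.57% called lower. The hormone lists had 0 of 24 auxin genes higher and 1 lower at 24 h, and 2 of 20 cytokinin genes higher and 2 lower; LOG7 (AT5G06300), which activates cytokinins, had 13.6 and 12.7 RPKM at 24 h, against 33.5, 34.02 and 26.6 RPKM at 12 h (log2 difference -1.19, SE 0.14, adjusted p = 4.76e-05). CYP735A1 (AT5G38450), which makes trans-zeatin forms, had 3.13 and 3.59 RPKM at 24 h, against 1.099, 1.31 and 1.103 RPKM at 12 h (log2 difference 1.01). Of 11 low-oxygen genes 3 rose and 3 fell. Among the 10 of them that passed the minimum at both times, 2 rose and 3 fell. HRE1 (AT1G72360), an ERF factor, had 22.99 and 30.04 RPKM at 24 h, against 7.46, 11.97 and 8.24 RPKM at 12 h (log2 difference 1.44, SE 0.21, adjusted p = 0.000216). PDC1 (AT4G33070), of ethanol fermentation, had 6.88 and 7.69 RPKM at 24 h, against 15.8, 15.2 and 19.99 RPKM at 12 h (log2 difference -1.11). For the remaining lists the counts were 0 of 18 ribosome biogenesis genes higher and 2 lower, 0 of 18 heat shock genes higher and 4 lower, 0 of 11 genes of protein folding in the endoplasmic reticulum higher and 4 lower, 1 of 20 genes of darkness, starvation and sugar transport higher and 6 lower, 0 of 18 light-harvesting and greening genes higher and 5 lower, 2 of 18 aquaporins higher and 7 lower, 2 of 17 clock genes higher and 1 lower and 0 of 2 flavonoid genes higher and 1 lower. The 1 gene of darkness, starvation and sugar transport that rose passed the minimum through the 24 h libraries alone. Without it 0 of 19 were higher. Without 24 h replicate 2 the calls of lower genes were 0 for heat shock, 0 for protein folding, 0 for ribosome biogenesis, 1 for light harvesting and 3 for aquaporins. The light-harvesting count was 4 lower without 12 h replicate 1, with a median log2 difference of -0.18 against -0.51 with all libraries, and 3 lower without 24 h replicate 1.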
